A study of Mus musculus with 33 samples.

Results

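The messenger RNA of 10 genes that make, use or remove endosomal phosphoinositides was followed across 33 mouse prostate tumours: Pikfyve, Vac14, Fig4, Pik3c3, Pik3r4, Pip4k2a, Pip4k2c, Pip5k1c, Mtm1 and Mtmr3. They were chosen by symbol, for their place in the pathway, from 48795 genes in the expression table, and each symbol matched 1 row. The tumours were grown from Myc-CaP cells, a line from a MYC-driven mouse prostate cancer, placed under the skin of both flanks of male FVB mice, whose own cells are also present in each tumour. Treatment began at 50 mm3 and lasted 3 weeks, with 5 mice in each of 4 groups. The vehicle group (10 tumours) received oral vehicle with isotype control antibody, and the ESK981 group (8 tumours) received ESK981 at 15 mg/kg by mouth on 5 days of the week with isotype control antibody. The anti-PD-1 group (7 tumours) received oral vehicle with 200 µg of antibody against PD-1 3 times a week, and the combination group (8 tumours) received both agents. ESK981 is a multi-kinase inhibitor that also inhibits the PIKfyve enzyme, and the series concerns blocking autophagy through PIKfyve together with checkpoint blockade. The values here ask whether the RNA of the enzyme, its partners and the neighbouring lipid kinases and phosphatases differed between the groups. They do not measure enzyme activity or lipid.

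Phosphoinositides are membrane lipids whose inositol ring is phosphorylated at different positions, and the pattern marks the identity of an organelle. On endosomes, the class III PI3-kinase (catalytic subunit Pik3c3, also called Vps34, with the regulatory subunit Pik3r4, also called Vps15) makes PI3P, which recruits proteins of endosome traffic and of autophagosome formation. PIKfyve adds a phosphate to PI3P and gives PI(3,5)P2. It works in a complex with the scaffold Vac14 and with Fig4, a phosphatase that can turn PI(3,5)P2 back to PI3P, and loss of the activity swells endosomes and lysosomes into vacuoles. Myotubularins such as Mtm1 and Mtmr3 remove the phosphate at position 3 from both lipids. The type II kinases Pip4k2a and Pip4k2c act on PI5P, and the type I kinase Pip5k1c makes PI(4,5)P2 at the plasma membrane.

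Each of the 10 genes had fragments in every tumour, and the libraries differed in depth and makeup. Vehicle tumours had 9.90e+06 to 1.84e+07 fragments in total and ESK981 tumours 1.81e+07 to 3.24e+07. Combination tumours had 1.78e+07 to 2.48e+07 and anti-PD-1 tumours 1.13e+07 to 2.42e+07. Pikfyve received 195 to 1814 fragments per tumour, and Mtm1, the gene with the lowest level per length, 65 to 686. Genes lying on ribosomal RNA sequence took 8.87% to 35.3% of the fragments in vehicle tumours and 2.31% to 14.7% in ESK981 tumours. They took 2.88% to 16.7% with the combination and 5.82% to 24.0% with anti-PD-1. The labels place 9 vehicle tumours on a separate flow cell, while the remaining vehicle tumour, 5R (right flank of mouse 5), shared its flow cell with all 23 treated tumours. Vehicle against treatment and flow cell can therefore hardly be told apart, whereas comparisons among the treated groups lie within 1 flow cell. Lanes of that flow cell nearly followed the treated groups, so lane and treatment can hardly be told apart there either. ESK981 tumours were on lanes 3 and 4, combination tumours on lane 5 (1L on lane 4) and anti-PD-1 tumours on lane 6. Of the epithelial markers, Krt8 was present (3.73 to 117 FPKM) and Epcam was listed at 0 in 17 of 33 tumours.

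The level of each gene is given in FPKM, fragments per kilobase of exon and per 1e+06 fragments, so levels of different genes are per length. Averaged over the 20 mice, Pip4k2c (9.11 ± 1.30 FPKM, SD), Pip4k2a (7.39 ± 1.77) and Mtmr3 (6.71 ± 0.909) were the highest. Fig4 (4.22 ± 0.832), Pip5k1c (4.12 ± 1.05) and Pik3c3 (3.14 ± 0.426) lay in the middle. Pikfyve (2.43 ± 0.480), Pik3r4 (2.36 ± 0.318) and Vac14 (2.32 ± 0.463) were close together, and Mtm1 was the lowest (1.06 ± 0.315). Neighbours in this order differed by less than the larger of their SDs, except Mtmr3 and Fig4, Pik3c3 and Pikfyve, and Vac14 and Mtm1. The RNA for the kinase and for its scaffold was thus present at a like level per length, with Fig4 higher.

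**Figure D1:**
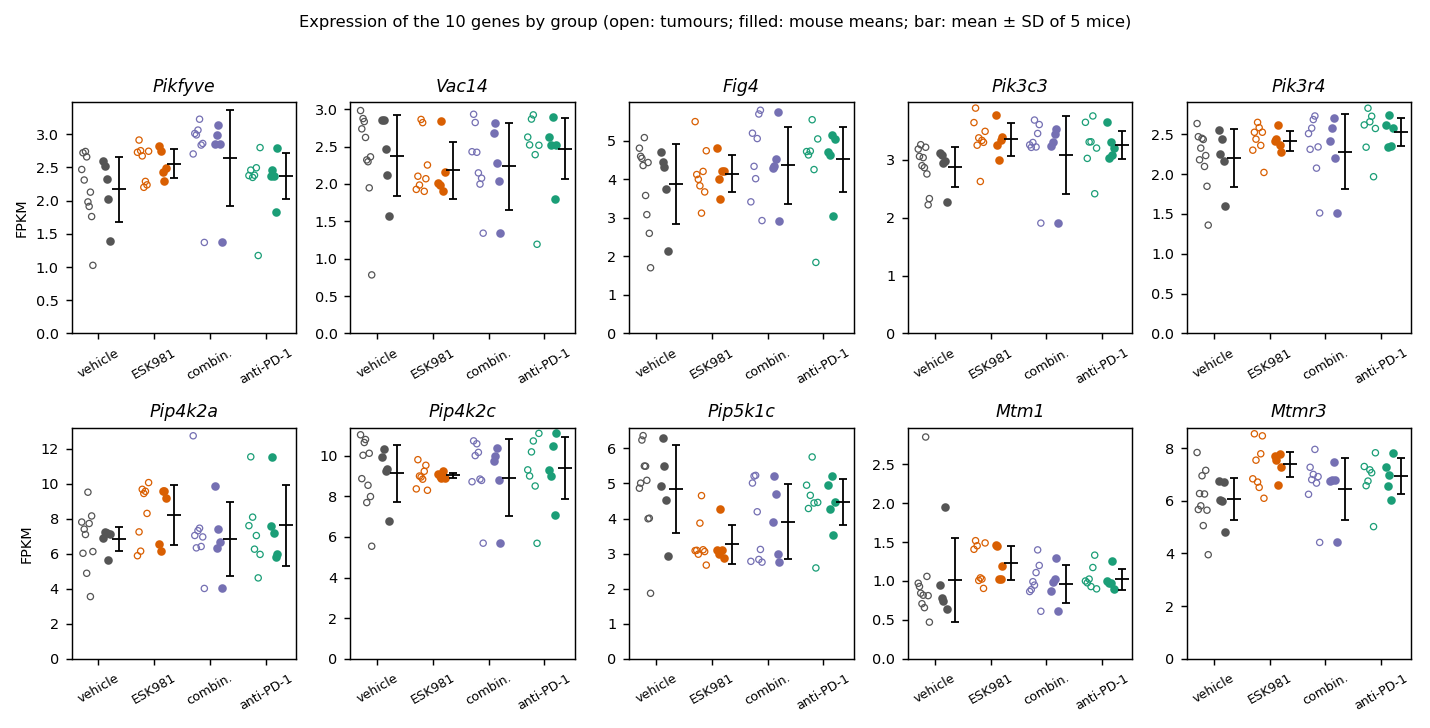
FPKM of each of the 10 genes (vertical axes, from 0) in the 4 groups: open circles are tumours, filled circles the means of the 5 mice, and the bar the mean ± SD over mice. Groups overlap in every panel, the ESK981 mice sit low for Pip5k1c (3.26 ± 0.567 against 4.84 ± 1.25 with vehicle), and single low tumours recur in the vehicle, combination and anti-PD-1 groups.

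Pikfyve RNA did not differ between the groups beyond the spread of the mice. The 5 vehicle mice were at 2.59, 2.52, 2.32, 2.02 and 1.39 FPKM, and the 5 ESK981 mice at 2.82, 2.75, 2.44, 2.29 and 2.49 FPKM. With the combination the mice were at 2.86, 2.99, 3.14, 2.85 and 1.37 FPKM, and with anti-PD-1 at 2.38, 2.46, 2.36, 1.83 and 2.80 FPKM. The group means were 2.17 ± 0.489, 2.56 ± 0.222, 2.64 ± 0.721 and 2.37 ± 0.346 FPKM (SD, n = 5 mice), and each treated group overlapped the vehicle group. On the log2(FPKM + 0.5) scale, ESK981 minus vehicle was 0.22 ± 0.17 (SE, adjusted p = 0.397). Its 95% interval ran from −0.14 to 0.58, that is from 1.10-fold lower to 1.50-fold higher. Combination minus vehicle was 0.23 ± 0.17 (adjusted p = 0.615) and anti-PD-1 minus vehicle 0.11 ± 0.17 (adjusted p = 0.799). Without 3 tumours low for most of the 10 genes (combination 5R, anti-PD-1 4R and vehicle 5R), combination minus vehicle was 0.35 (adjusted p = 0.0276), and per fragments outside ribosomal-RNA-like and mitochondrial genes ESK981 minus vehicle was −0.02 (adjusted p = 0.926).

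The gene lies on chromosome 1 (65186683 to 65278695, plus strand, mm10). The 250 bases before its RefSeq start (GRCm38.p6, chr1:65186435-65186684, plus strand) are shown beside those of Pip5k1c (chr10:81292713-81292962, plus strand), the first as the gene the series concerns and the second as the gene with the largest difference between ESK981 and vehicle. A further 30 bases just after the start of Vac14 (chr8:110618586-110618615, plus strand) are shown for a palindrome. Capitals mark the E-box core CACGTG or, in Vac14, the longer palindrome GTCACGTGAC that contains it.
Pikfyve: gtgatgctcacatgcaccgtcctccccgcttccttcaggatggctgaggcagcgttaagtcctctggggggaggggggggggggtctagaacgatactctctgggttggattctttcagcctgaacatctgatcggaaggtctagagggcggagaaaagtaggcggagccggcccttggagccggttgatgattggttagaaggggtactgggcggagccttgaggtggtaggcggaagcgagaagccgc
Pip5k1c: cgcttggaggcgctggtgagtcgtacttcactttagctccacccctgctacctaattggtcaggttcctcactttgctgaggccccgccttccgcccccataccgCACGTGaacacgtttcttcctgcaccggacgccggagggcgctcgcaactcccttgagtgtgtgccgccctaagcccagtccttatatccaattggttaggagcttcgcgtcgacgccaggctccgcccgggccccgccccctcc
Vac14: tgctcgcggcGTCACGTGACctgagtaaca
CACGTG is the core letter sequence bound by MYC and by the lysosomal gene regulators of the TFEB family, and the longer palindrome is the form known from lysosomal genes. Both read the same on both strands. CACGTG was in 7.15% of all 32851 windows of 300 bases around RefSeq starts (250 before, 50 after), and GTCACGTGAC, which always contains it, in 0.326%. Windows of 8 of the 10 genes were searched, without Mtmr3 and Pik3c3. CACGTG was present in Vac14 (from base 32 after the start), Pip5k1c (145 bases before the start) and Mtm1. In Mtm1 it lay 98 bases before 1 start, with the same site in an overlapping window. The Mtm1 window at the annotated start of the gene (chrX:71210517-71210816) had no match. The longer palindrome was in Vac14 only, and Pikfyve had neither in its window. A match describes these letters and is no evidence of binding.

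The scaffold and the phosphatase of the complex did not differ between groups beyond the spread of the mice either. Vac14 (chromosome 8, 110618585 to 110720398, plus strand) was at 2.86, 2.86, 2.47, 2.12 and 1.57 FPKM in vehicle mice and at 2.02, 1.99, 2.84, 1.90 and 2.16 FPKM in ESK981 mice. It was at 2.68, 2.82, 2.29, 2.04 and 1.34 FPKM with the combination and at 2.63, 2.52, 2.90, 1.79 and 2.52 FPKM with anti-PD-1. The ESK981 mice fell inside the vehicle range, with ESK981 mouse 3 above the other 4. ESK981 minus vehicle was −0.07 ± 0.18 on the log2 scale (adjusted p = 0.83), with a 95% interval from −0.43 to 0.30. Fig4 (chromosome 10, 41188172 to 41303260, minus strand) had group means of 3.87 ± 1.02 FPKM with vehicle and 4.13 ± 0.478 with ESK981. Its means were 4.37 ± 0.998 with the combination and 4.51 ± 0.848 with anti-PD-1 (SD, n = 5 mice). The Fig4 difference between ESK981 and vehicle was 0.12 ± 0.19 (adjusted p = 0.689), and its lowest mouse was vehicle 5 at 2.15 FPKM.

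The class III PI3-kinase genes were the most even of the set over mice, together with Mtmr3. Pik3c3 (chromosome 18, 30272747 to 30348126, plus strand) was at 3.12, 3.08, 2.95, 2.99 and 2.28 FPKM in vehicle mice and at 3.77, 3.25, 3.00, 3.34 and 3.40 FPKM in ESK981 mice. All ESK981 mice but mouse 3 were above all vehicle mice. The difference was 0.19 ± 0.13 (adjusted p = 0.339), and an exact permutation test of the 2 groups, two-sided and unadjusted, gave p = 0.0238 where 0.00794 is the smallest that 5 against 5 mice allow. Scaling to the sum of the other genes gave Pik3c3 a difference of 0.35 (adjusted p = 0.019), and per fragments outside ribosomal-RNA-like and mitochondrial genes it was −0.07 (adjusted p = 0.65), so its sign also depended on the scaling. With the combination the mean was 3.09 ± 0.670 FPKM, and with anti-PD-1 3.25 ± 0.246 FPKM. Pik3r4 (chromosome 9, 105642978 to 105687657, plus strand) was at 2.20 ± 0.368 FPKM with vehicle, 2.42 ± 0.126 with ESK981, 2.28 ± 0.469 with the combination and 2.52 ± 0.177 with anti-PD-1. Its difference between ESK981 and vehicle was 0.12 ± 0.13 (adjusted p = 0.544).

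Of the myotubularins, Mtmr3 had the largest positive difference of the 10 genes with ESK981, and Mtm1 was set by a single tumour in the vehicle group. Mtmr3 (chromosome 11, 4480868 to 4594863, minus strand) was at 6.75, 6.04, 6.004, 6.71 and 4.80 FPKM in vehicle mice and at 7.69, 7.54, 6.61, 7.78 and 7.28 FPKM in ESK981 mice. The combination mice were at 6.76, 6.80, 7.48, 6.80 and 4.42 FPKM and the anti-PD-1 mice at 7.30, 6.57, 6.96, 6.04 and 7.82 FPKM. ESK981 mouse 3 was the only ESK981 mouse inside the vehicle range. ESK981 minus vehicle was 0.28 ± 0.13 (unadjusted p = 0.0461, adjusted p = 0.15; exact permutation p = 0.0238). Leaving out combination mouse 5, which changes only the estimate of the spread, gave 0.28 (adjusted p = 0.0451). Leaving out the 3 low tumours gave 0.23 (adjusted p = 0.0172), and scaling to the sum of the other genes gave 0.45 (adjusted p = 0.00494). Per fragments outside ribosomal-RNA-like and mitochondrial genes the difference of Mtmr3 was −0.0045 (adjusted p = 0.978), so its direction depended on the scaling. Mtm1 (chromosome X, 71210767 to 71315691, plus strand) had means of 1.01 ± 0.538 FPKM with vehicle, 1.23 ± 0.217 with ESK981, 0.961 ± 0.250 with the combination and 1.02 ± 0.135 with anti-PD-1. In the vehicle group, mouse 4 was at 1.95 FPKM and the other 4 between 0.641 and 0.950. The left tumour of that mouse, at 2.85 FPKM, was the highest of all 33 tumours.

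Pip5k1c had the largest difference of the 10 genes between ESK981 and vehicle, and with Vac14 (−0.07) it was the only one below 0. It lies on chromosome 10 (81292963 to 81319973, plus strand). The vehicle mice were at 4.94, 6.30, 5.49, 4.54 and 2.94 FPKM and the ESK981 mice at 3.09, 2.98, 4.26, 3.11 and 2.86 FPKM. With the combination the mice were at 3.89, 5.21, 4.71, 2.98 and 2.76 FPKM, and with anti-PD-1 at 4.95, 4.29, 5.21, 3.52 and 4.46 FPKM. All ESK981 mice were below 4 of the vehicle mice, and vehicle mouse 5 lay among them. ESK981 minus vehicle was −0.47 ± 0.19 on the log2 scale (1.38-fold lower in FPKM + 0.5, unadjusted p = 0.0207, adjusted p = 0.091, exact permutation p = 0.0714), which did not pass the threshold. ESK981 minus anti-PD-1, within 1 flow cell but on different lanes, was −0.40 ± 0.19 (unadjusted p = 0.0442, adjusted p = 0.346, exact permutation p = 0.0159). ESK981 mouse 3 lay inside the anti-PD-1 range. Combination minus vehicle was −0.27 ± 0.19 (adjusted p = 0.572) and anti-PD-1 minus vehicle −0.07 ± 0.19 (adjusted p = 0.89).

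Pip5k1c did not pass with the values as deposited, and whether it passed depended on vehicle 5R and on the scaling. Without vehicle 5R, ESK981 minus vehicle was −0.56 (adjusted p = 0.026), and without vehicle mouse 5 it was −0.63 (adjusted p = 0.0214). With median-of-ratios scaling it was −0.59 (adjusted p = 0.00531), and per fragments outside ribosomal-RNA-like and mitochondrial genes −0.74 (adjusted p = 0.00443). It was below 0 under 32 of 33 alternatives and passed the threshold under 5 of them. The exception was the fit with flow cell as a term, in which vehicle 5R alone stands for the vehicle group on the shared flow cell, at 0.61 (adjusted p = 0.105). Markers of several other cell types also differed between ESK981 and vehicle, in both directions. The 6 macrophage markers, all present in every tumour, summed to 86.7 to 182 FPKM in vehicle mice, 52.8 to 84.7 with ESK981, 57.5 to 172 with the combination and 99.5 to 175 with anti-PD-1, and 3 of the 6 fell with ESK981. The 6 T cell markers summed to 3.16 to 8.15 FPKM in vehicle mice and 0.822 to 2.37 with ESK981 (3 of 6 fell), and the 5 fibroblast markers to 55.3 to 353 and 30.8 to 43.8 (3 of 5 fell). Of the endothelial markers 1 of 3 tested rose (Cdh5, 1.17, adjusted p = 0.00822) and 0 fell, and of those of pericytes and smooth muscle 1 of 3 rose (Rgs5, 1.06, adjusted p = 0.016) and 0 fell. All 8 mitochondrial genes followed as signs of RNA quality fell, by 1.24 to 2.18 on the log2 scale. Their part in the Pip5k1c values was not tested, and fewer cells of a type cannot be told apart from less RNA per cell in whole tumours.

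**Figure D2:**
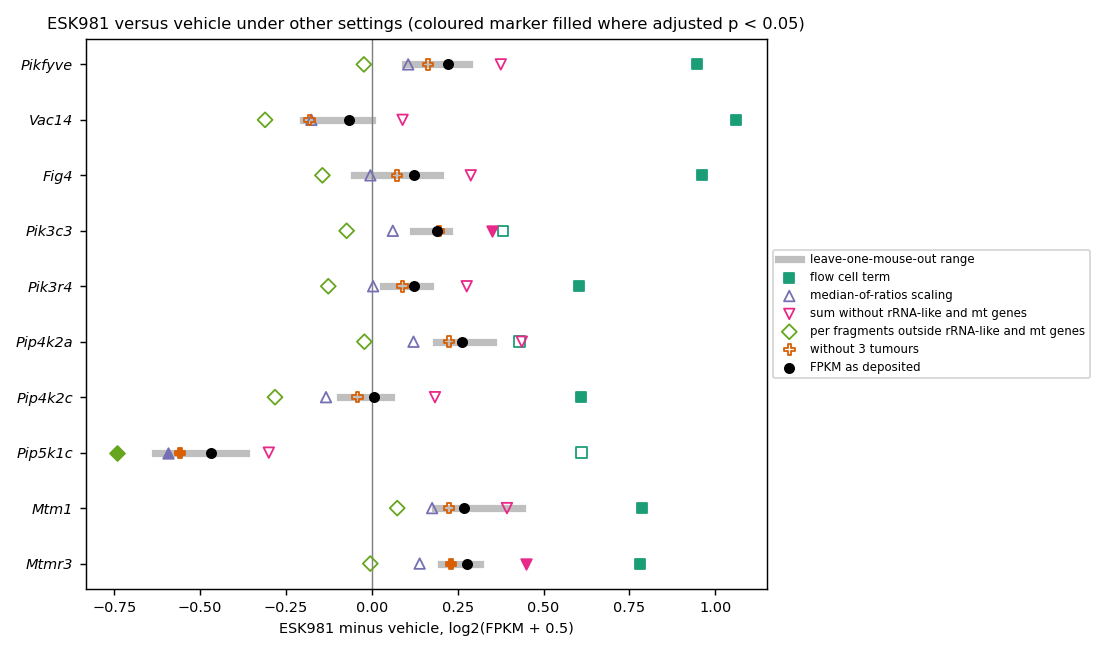
ESK981 minus vehicle on the log2(FPKM + 0.5) scale (horizontal axis) for each of the 10 genes under the values as deposited (black), the range when each mouse is left out (grey) and 5 other settings (coloured, filled where adjusted p was under 0.05). Pip5k1c lies left of 0 in each setting but the flow cell term (0.61), and that term moves all 10 genes to the right.

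The type II kinases were the most abundant RNAs of the set per length, and neither passed the test in any comparison. Pip4k2a (chromosome 2, 18842255 to 18998126, minus strand) had means of 6.84 ± 0.677 FPKM with vehicle, 8.21 ± 1.70 with ESK981, 6.87 ± 2.11 with the combination and 7.63 ± 2.32 with anti-PD-1. In the ESK981 group 3 mice were at 9.19 to 9.57 FPKM and the other 2 at 6.15 and 6.57, below 4 of the vehicle mice. ESK981 minus vehicle was 0.26 ± 0.20 (adjusted p = 0.38). Pip4k2c (chromosome 10, 127197067 to 127211585, minus strand) was at 8.89 to 9.22 FPKM in all 5 ESK981 mice, against 6.76 to 10.3 in vehicle mice. Its difference was 0.01 ± 0.15 (adjusted p = 0.979), with a 95% interval from −0.31 to 0.33. Exons of Pip4k2c overlap those of the antisense gene F420014N23Rik over 244 bases, and reads of the pair cannot be told apart without strand.

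None of the 10 genes passed the threshold (limma, adjusted p under 0.05 over all 15846 genes tested) in any of 7 comparisons. For ESK981 against vehicle, 0 of 10 passed where 14.4% of all genes did, and 2 had an unadjusted p under 0.05 (Pip5k1c and Mtmr3). The median difference of the 10 was 0.16, against 0.11 over all genes. For anti-PD-1 against vehicle, 0 of 10 passed (0.783% of all genes), the median was 0.13 against 0.13 over all genes, and 0 had an unadjusted p under 0.05. For the combination against vehicle, 0 of 10 passed (0.606% of all genes), the median was 0.03 against 0.03, and again 0 had an unadjusted p under 0.05. The combination against ESK981 and against anti-PD-1 gave 0 of 10 in each, where 0% of all genes passed, with 0 unadjusted p under 0.05. ESK981 against anti-PD-1 gave 0 of 10 (0.00631% of all genes), and 1 had an unadjusted p under 0.05 (Pip5k1c). The interaction of ESK981 and anti-PD-1, which asks whether the combination departs from the sum of the single agents, gave 0 of 10 (0.0252% of all genes), and 1 had an unadjusted p under 0.05 (Mtmr3, −0.39 ± 0.19, adjusted p = 0.273). Exact permutation tests of the 10 genes in the 6 comparisons of groups gave 2 unadjusted p under 0.05 for ESK981 against vehicle (Pik3c3 and Mtmr3), 1 for ESK981 against anti-PD-1 (Pip5k1c) and 0 for the other 4. In every one of these comparisons the mice of the groups overlapped for all 10 genes. The share of all genes whose mice overlapped was not computed, so this overlap is a description only. The comparisons with vehicle share the vehicle mice.

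**Figure D3:**
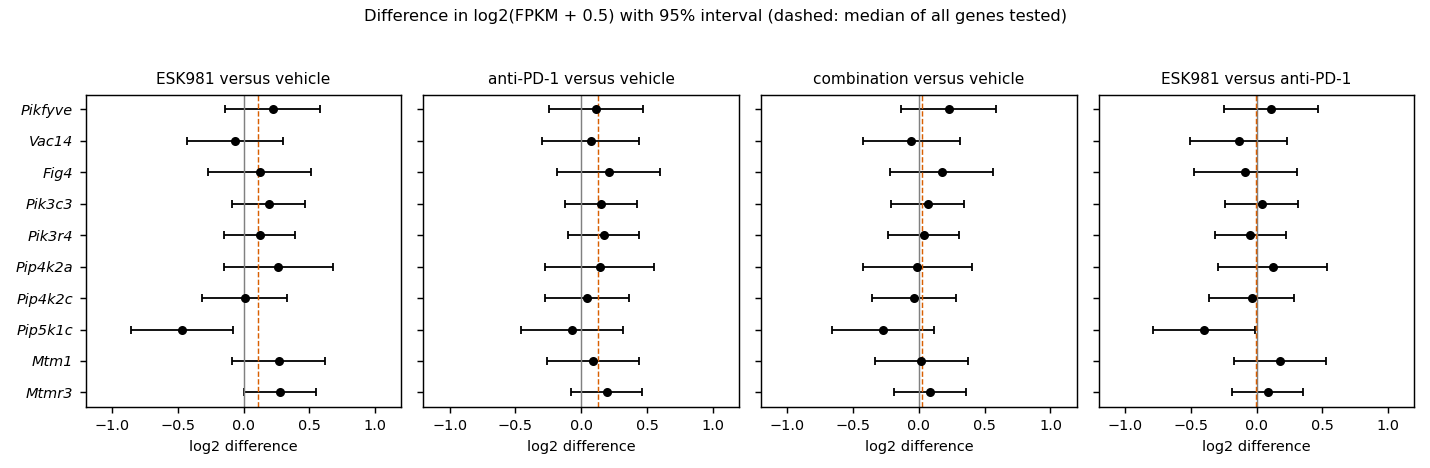
Difference in log2(FPKM + 0.5) with its 95% interval for the 10 genes in 4 comparisons, and the median over all genes tested (dashed). All intervals but those of Pip5k1c and Mtmr3 for ESK981 against vehicle and of Pip5k1c for ESK981 against anti-PD-1 span 0.

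Set against the other 9 genes of the same mouse, which removes any scaling common to a library, Pip5k1c stood lowest with ESK981. Its mean relative level on the log2 scale was 0.53 ± 0.25 with vehicle, −0.18 ± 0.24 with ESK981, 0.17 ± 0.32 with the combination and 0.30 ± 0.11 with anti-PD-1 (SD, n = 5 mice). The vehicle mice ran from 0.24 to 0.85 and the ESK981 mice from −0.35 to 0.23. The groups thus did not overlap on this measure, although the closest mice were 0.24 and 0.23. Pip4k2c did not overlap either, with vehicle mice at 1.54 to 1.66 and ESK981 mice at 1.41 to 1.53. Pip5k1c was singled out by its difference in these same values, so its place here is no separate support. Pikfyve was at −0.73 ± 0.14 with vehicle and −0.73 ± 0.15 with anti-PD-1, and at −0.56 ± 0.13 with ESK981 and −0.46 ± 0.17 with the combination. Vac14 was at −0.62 ± 0.21 with vehicle and −0.82 ± 0.24 with ESK981, the opposite sign to Pikfyve. These relative values are a description and were not tested.

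**Figure D4:**
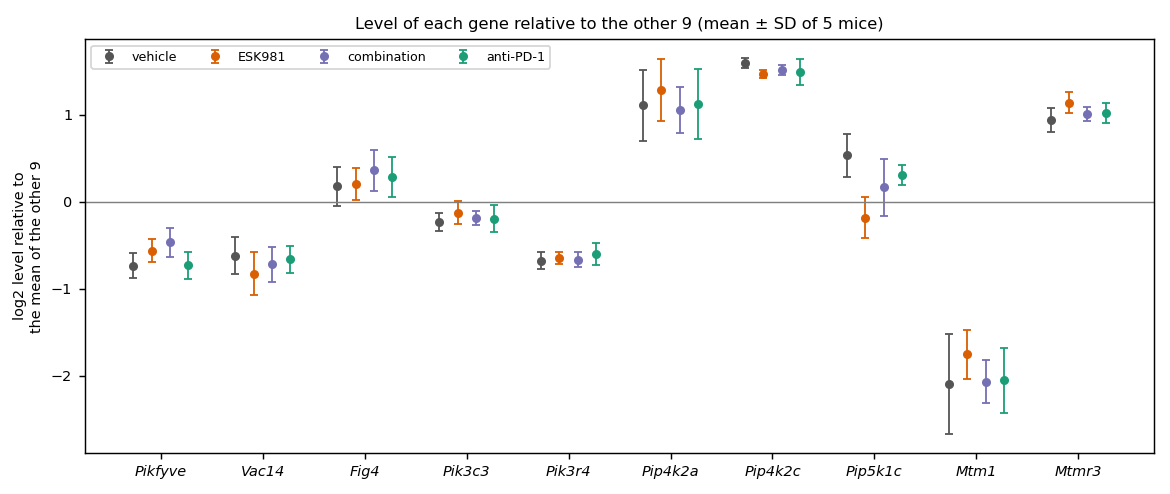
Level of each gene relative to the mean of the other 9 in the same mouse (log2, vertical axis), as the mean ± SD of 5 mice in each group. Pip5k1c is lowest with ESK981 (−0.18 against 0.53 with vehicle), and for the other 9 genes each treated group lies within 0.34 of vehicle.

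Most of the 10 genes were low together in 3 tumours. All 10 were below their group median in vehicle 5R and in combination 5R, and 9 in anti-PD-1 4R, where Mtm1 (1.33 FPKM) was the highest of the 7 anti-PD-1 tumours. Vehicle 5R was the lowest of all 33 tumours for 8 of them, the exceptions being Pik3c3 (lowest in combination 5R, 1.91 FPKM) and Pip4k2a (lowest in vehicle 4R, 3.56 FPKM). In vehicle 5R Pikfyve was at 1.03 FPKM, and in the other 9 vehicle tumours it ran from 1.76 to 2.74, with a median 2.25-fold higher. Vac14 was at 0.784 FPKM there and from 1.95 to 2.98 in the other 9, with a median 3.35-fold higher. The median of the 10 genes, set against the group median of each, was −0.79 (log2) in vehicle 5R, −0.70 in combination 5R and −0.66 in anti-PD-1 4R, and −0.27 to 0.18 in the other 30. In each of the 4 groups the tumour with the largest share of ribosomal-RNA-like fragments was also the one with the lowest median: vehicle 5R (35.3%), ESK981 3R (14.7%), combination 5R (16.7%) and anti-PD-1 4R (24.0%). Mitochondrial genes took 11.4% of fragments in vehicle 5R and 6.55% in anti-PD-1 4R, the highest shares of their groups, but 0.650% in combination 5R, the lowest of the 8 combination tumours (up to 2.46%). The part of RNA quality in these low values was not tested.

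**Figure D5:**
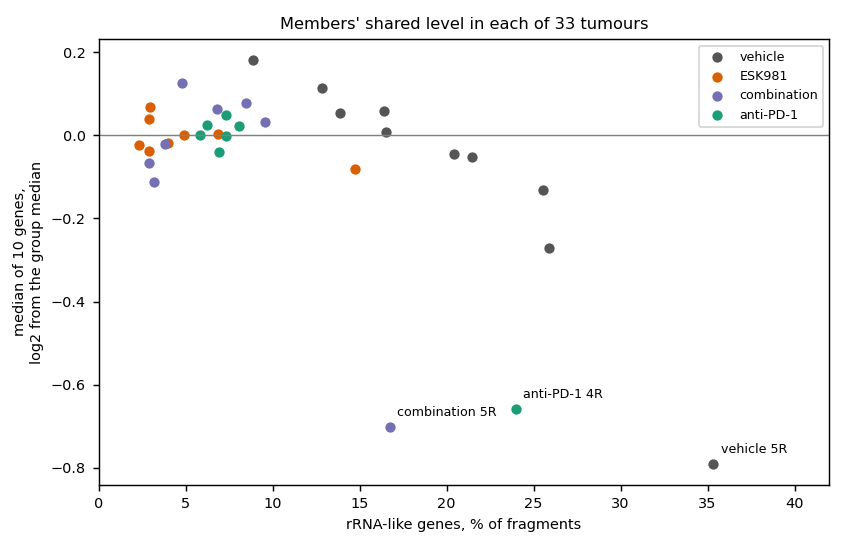
Median of the 10 genes in each of 33 tumours, as the log2 difference from the group median of each gene (vertical axis), against the share of fragments on ribosomal-RNA-like genes (horizontal axis, %). Vehicle 5R, combination 5R and anti-PD-1 4R lie between −0.79 and −0.66, apart from the other 30.

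The SD between flanks of a mouse and that between mice of a group were of like size, but they are unlike measures. The first is of single tumours, and the second is of mouse means, which average both tumours where a mouse had 2. Over the 13 mice with 2 tumours, the SD between flanks of Pikfyve on the log2 scale was 0.23 against 0.27 between mice, and for Pip5k1c it was 0.29 against 0.30. The largest ratio between the flanks of 1 mouse was 1.31-fold (Pik3r4) to 2.23-fold (Vac14, vehicle mouse 5). The right flank was the higher in 9 of 13 mice for Pikfyve and in 5 to 7 of 13 for the other 9 genes.

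With vehicle 5R as the only vehicle tumour on the shared flow cell, a fit with flow cell as a term placed all 10 genes higher with ESK981 than with vehicle. The median over all genes moved too, from 0.11 to 0.60, so the shift was not particular to these 10. The values of these 7 were 0.95 for Pikfyve (adjusted p = 0.00915), 1.06 for Vac14 (0.00416), 0.96 for Fig4 (0.0281), 0.60 for Pik3r4 (0.013), 0.61 for Pip4k2c (0.0493), 0.79 for Mtm1 (0.0494) and 0.78 for Mtmr3 (0.00874), each an adjusted p from limma. These are the values within the shared flow cell, and they compare the treated tumours with a library that stood apart from the other vehicle tumours. Without vehicle 5R no such fit can be had.

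Around the 10 genes, 59 further genes of phosphoinositide metabolism and of lipid effectors could be tested, from 5 lists. For ESK981 against vehicle 5 of 59 rose and 0 fell (8.47%, against 14.4% of all genes), with a median difference of 0.19 against 0.11 over all genes. Of the other class III PI3-kinase subunits, such as Becn1 (0.15 ± 0.15, adjusted p = 0.524) and Atg14 (0.04 ± 0.13, adjusted p = 0.859), 0 of 6 passed. Of the other phosphoinositide kinases 1 of 8 rose: Pik3c2a, a class II PI3-kinase, from 5.28 ± 0.733 FPKM with vehicle to 8.37 ± 1.05 with ESK981 (0.62 ± 0.15, adjusted p = 0.0139). Of the other myotubularins 2 of 11 rose. Mtmr1, a close relative of Mtm1, went from 2.98 ± 0.386 to 4.96 ± 0.546 FPKM (0.66, adjusted p = 0.00941), and Sbf2, a myotubularin without catalytic activity, from 3.69 ± 0.436 to 5.17 ± 0.562 FPKM (0.44, adjusted p = 0.0442). Of the other phosphatases 1 of 10 rose, Sacm1l, which removes PI4P at the endoplasmic reticulum, from 10.6 ± 1.81 to 15.3 ± 1.55 FPKM (0.52, adjusted p = 0.0489). In the list of effectors of these lipids, which also holds the GTPases Rab5a, Rab5c and Rab7, 1 of 24 rose. It was Zfyve16, an endosomal protein with a FYVE domain, from 2.84 ± 0.400 to 4.24 ± 0.612 FPKM (0.51, adjusted p = 0.0246). The 2 groups of mice did not overlap for these 5 genes. That adds no support, since the genes were picked for their difference between these same mice. The share of all genes without overlap is not given here. Under 33 alternatives Mtmr1 passed in 33 and Pik3c2a in 32, but Zfyve16 in 26, Sacm1l in 17 and Sbf2 in 15. Per fragments outside ribosomal-RNA-like and mitochondrial genes the differences were smaller, at 0.40 for Mtmr1 (adjusted p = 0.0222) and 0.35 for Pik3c2a (0.0415), and 3 no longer passed: Zfyve16 at 0.25 (0.109), Sacm1l at 0.23 (0.245) and Sbf2 at 0.17 (0.339). Mcoln1, the lysosomal channel that PI(3,5)P2 opens, was at −0.19 ± 0.16 (adjusted p = 0.432). In the other 6 comparisons 0 of 59 passed.

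Over the 20 mice, the named genes whose profile was most like that of Pikfyve were Taf2 (Pearson r = 0.955), Tgs1 (0.953), Wars2 (0.951), Mtrf1l (0.949) and Fchsd2 (0.945), and the median over 15845 genes was 0.49. Within the set, Pip4k2c (0.852), Pik3c3 (0.832) and Fig4 (0.830) were the most like Pikfyve, and Vac14 was at 0.702. Without vehicle mouse 5, combination mouse 5 and anti-PD-1 mouse 4, over 17 mice, Taf2 was at 0.809, Fig4 at 0.375 and Vac14 at 0.014, and the median over all genes at 0.066. These correlations describe profiles that share libraries, depth and scaling.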

How the data were processed

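Total RNA of 33 tumours was sequenced after ribosomal RNA depletion. The authors deposited FPKM per gene, from STAR and featureCounts on mm10, per the submitters' processing notes (versions, annotation, strand setting: not given in the sources used here). FPKM times GENCODE M21 union exon length gave whole fragments (within 0.01) for 100% of low values in every tumour, hence the depths; no count model was fitted. Fragment counts were not used for Fig4 and Pip4k2c, whose model lengths differ.

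The mouse was the replicate (20 mice, 13 with 2 tumours; the labels do not number mice across groups, and the numbers here follow label order). log2(FPKM + 0.5) was averaged per mouse for the 15846 genes that reached 0.5 FPKM in 5 or more tumours, and fitted in limma 3.58.1 (R 4.3.3) with a mean-variance trend, two-sided, with Benjamini-Hochberg adjustment over all genes tested. All 10 genes passed the filter. Single values were also compared by exact permutation of mice (Python 3.11.15). The fit was tested on simulated data. The named genes were the 10 members, the genes of the pathway lists that passed, and the 5 named genes most like Pikfyve; predicted genes were left out of the last. The members and lists were chosen with earlier results of these data known. Promoter windows are from RefSeq (GRCm38.p6), matched by symbol and searched for 8 of 10 genes. For the 10 genes, windows on chromosome 18, where Pik3c3 lies, were left out of the search. They were kept in the background of all windows. Becn1, Atg14 and Mcoln1 were picked for their known roles.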

Additional observations from a re-analysis of the deposited data

Results flagged for a closer look

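Within 80 sets of values (10 genes in the 4 groups, as mice and as tumours), 20 had a sample far from the others; chance alone gives about 1 in 20 sets, and mouse values contain the tumour values, so the flags are not independent. Mouse combination 5 was the lowest of 5 for Pikfyve (1.37 FPKM, next 2.85), Pik3c3 (1.91) and Mtmr3 (4.42), and its only tumour, combination 5R, was the lowest of 8 for Pikfyve (1.37), Pik3c3 (1.91) and Pip4k2c (5.69). Anti-PD-1 4R was the lowest of 7 tumours for Pikfyve (1.17 FPKM), Vac14 (1.19) and Fig4 (1.84), and its mouse was the lowest of 5 for Fig4 (3.04) and the highest of 5 for Mtm1 (1.25). Vehicle 5R was the lowest of 10 tumours for Vac14 (0.784 FPKM) and Pip5k1c (1.87), and its mouse the lowest of 5 for Pik3c3 (2.28). Mouse ESK981 3 was the highest of 5 for Vac14 (2.84 FPKM, next 2.16) and Pip5k1c (4.26, next 3.11). Mouse vehicle 4 was the lowest of 5 for Pip4k2a (5.65 FPKM) and the highest for Mtm1 (1.95, next 0.950), the latter from its left tumour, the highest of 10 (2.85). Combination 1L was the highest of 8 tumours for Pip4k2a (12.7 FPKM, next 7.46).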

How the results depend on the processing

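Under 33 alternatives (20 leave out 1 mouse each; 2 were added after seeing the data: FPKM per fragments outside ribosomal-RNA-like and mitochondrial genes, and vehicle 5R left out alone), 2275 of 2310 member values stayed on their side of the threshold, 31 passed anew and 4 passed with the opposite sign. These 4 came from the flow cell term: Vac14 at 1.06 (ESK981 against vehicle) and 1.07 (combination against vehicle), and Pip5k1c at 0.98 (anti-PD-1 against vehicle) and 0.79 (combination against vehicle). The cause was not tested. The count of members called, 0 as deposited, was, with the flow cell term, 7 for ESK981 against vehicle, 6 for anti-PD-1 and 6 for the combination against vehicle, and 3 for the interaction. With scaling to the sum without ribosomal-RNA-like and mitochondrial genes it was 2 for ESK981, 2 for anti-PD-1 and 1 for the interaction. With median-of-ratios scaling it was 1 for ESK981, as it was with the 2 added alternatives (1 and 1). Without combination 5R, anti-PD-1 4R and vehicle 5R (the 3 tumours below) it was 2 for ESK981 and 1 for the combination. Leaving out 1 mouse gave 0 to 1 for ESK981.

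The count of all genes called for ESK981 against vehicle (2278, of which 1418 higher and 860 lower) was 5786 with the flow cell term (5554 higher), 1412 with no filter, 4389 with median-of-ratios scaling (2112 higher), 5981 with scaling to the sum (5167 higher), 1040 with 1 tumour per mouse, 4796 without the 3 tumours, 1390 without ESK981 1R and 2R, and 1054 to 3782 with 1 mouse left out. Per fragments outside ribosomal-RNA-like and mitochondrial genes 464 were higher and 2744 lower, and the median of all genes moved from 0.11 to −0.12; with the flow cell term it moved to 0.60, with the sum to 0.25 and with median-of-ratios to 0.00. For anti-PD-1 against vehicle (124), in the order flow cell, no filter, median-of-ratios, sum, 1 tumour per mouse and without the 3 tumours, the counts were 4397, 56, 368, 3320, 0 and 1769, and 29 to 375 with 1 mouse left out. For the combination against vehicle (96) the same order gave 4467, 54, 1066, 1455, 10 and 1461, with 167 for single tumours with mouse as a random effect, 1429 per fragments outside, and 62 to 408 with 1 mouse left out. The combination against ESK981 (0) gave 41 without the 3 tumours; the combination against anti-PD-1 (0) gave 1 with no filter and 0 to 59 with 1 mouse left out. ESK981 against anti-PD-1 (1) gave 0 with single tumours and a random effect, pseudocount 1, no filter, the sum, 1 tumour per mouse and without ESK981 1R and 2R; it gave 2 with the stricter filter, 168 with median-of-ratios, 772 without the 3 tumours, 84 per fragments outside, 63 without vehicle 5R and 0 to 181 with 1 mouse left out. The interaction (4) gave 4033 with the flow cell term, 1 with pseudocount 0.1, 0 with no filter, 54 with median-of-ratios, 2657 with the sum, 0 with 1 tumour per mouse, 725 without the 3 tumours, 1 without ESK981 1R and 2R, 8 without vehicle 5R and 0 to 67 with 1 mouse left out. No paired analysis was possible because the labels share no replicate numbers across groups. Depth limits low genes most: Vac14 had 54 to 490 and Mtm1 65 to 686 fragments per tumour.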

Other observations

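The 10 genes varied together over all 20 mice, but little without 3 mice. Those 3 were picked because their tumours were low for most of these same genes, a choice that itself favours a fall in r. Over all 45 pairs of the 10 genes and 20 mice, the median Pearson r was 0.588 (from −0.164 to 0.907) and the median Spearman rho 0.414, and within groups the median r was 0.692. Without vehicle mouse 5, combination mouse 5 and anti-PD-1 mouse 4, over 17 mice, the median r was 0.016 (from −0.671 to 0.782). The fall was not particular to the set: the median r of all genes with Pikfyve went from 0.49 to 0.066. Pik3c3 and Mtmr3, which act on PI3P in opposite directions, were the most alike pair over all mice (r = 0.907, rho = 0.803) and remained at 0.647 over the 17. Vac14 and Mtm1 were at 0.032 over all mice and −0.671 over the 17. These values are descriptions over libraries that share depth and scaling, chosen after the data were seen, and carry no test.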
